A study of Homo sapiens with 8 samples.

Results

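The genes described here are 10 core targets of p53, namely CDKN1A, MDM2, DDB2, TP53INP1, EDA2R, PHLDA3, PIDD, GDF15, DRAM1 and SESN1. They were taken by gene name, and the list was selected on measured values of these same arrays, in which several of them were already known to differ between the lines. Their levels and differences are therefore a description and carry no test. They are measured by 16 of the 50599 probes of the array and make up 10 of its 36337 gene names. RNA came from FT293 cells, a HEK293 human embryonic kidney line in which Flp recombinase places a single transgene at a fixed site and tetracycline switches it on. One line expressed GFP alone and the others expressed GFP-HuR, GFP-TIA1 or GFP-TIAR. RNA of every line was taken on day 3 of tetracycline, the 4 lines are isogenic apart from the transgene, and 2 one-colour arrays were made per line, 8 in all on 1 slide. The labels do not say whether the replicates were separate cultures, so p-values measure only the spread between these arrays, which may be technical.

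p53 is a transcription factor that is stabilised by DNA damage and other stresses and switches on genes for growth arrest, DNA repair and cell death. One of its targets, MDM2, marks p53 for degradation and so closes a feedback loop. HEK293 cells carry adenovirus E1 genes, and the E1B protein binds p53. TIA1 and TIAR are RNA-binding proteins that favour U-rich sequences, regulate splicing and repress translation, whereas HuR binds AU-rich sequences and is known mainly for stabilising mRNAs.

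All values are log2 of the processed signal minus the 75th percentile of the same array, so a negative level is a signal below that percentile and a difference of 1 is 2-fold. A gene is represented by its probe with the highest mean signal over the 8 arrays. Being in the background means that the scanner software did not mark the signal as well above background. GFP 1, the first GFP array, stood apart from the rest, with 86.0% of its probes well above background against 53.2% to 58.5% on the other arrays. Its local background intensity was 90.0 on average against 37.4 to 43.5 elsewhere. The GFP arrays are therefore given apart. A TIAL1 probe (TIAL1 encodes TIAR) read 4.87 and 4.98 in the TIAR line against 1.63 to 2.52 on the other arrays. The other TIAL1 probe and the probes of TIA1 and ELAVL1, the gene of HuR, were not highest in the line of that name. The sequences of the transgenes were not used here, and whether they contain the targets of these probes was not tested. Of 9 HEK293 markers, 8 were well above background on all 8 arrays. Keratinocyte markers were below background on all 7 arrays other than GFP 1, where 3 of 4 were above it. All 5 blood cell and all 4 hepatocyte markers were above background on GFP 1, against 2 to 4 and 2 to 3 on the other arrays. Fibroblast markers were above background for 4 of 5 genes on every array except GFP 2, where 2 were, and the part of this difference in the comparisons with GFP 2 was not tested.

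Sequence around the starts of the genes is shown because p53 binds DNA directly, at pairs of a 10-base half-site. In RefSeq windows from 250 bases before to 50 bases after each annotated start (GRCh38.p14), 8 of the 10 genes had 15 windows, those of PHLDA3 and TP53INP1 not being used. The p53 consensus half-site, which is its own reverse complement, was present in 2 of the 15 windows and in 6.63% of all 35116 windows. A pair of half-sites separated by at most 13 bases was present in 1 of the 15 and in 0.0285% of all windows. The pair lay in DDB2 on the plus strand at chr11:47214974-47215003, with its first half-site starting at base 6 of the transcript and 1 base between the half-sites. The single half-site lay in SESN1 on the minus strand at chr6:109009024-109009042 and started 49 bases before the transcript. Capitals mark the half-sites, and each sequence is given 5′ to 3′ on the strand of the gene.
DDB2: ggtttGAACAAGCCCtGGGCATGTTTggcg
SESN1: cgtctGGACAAGTCTccac
A match is a match of letters, and p53 binding was not measured. Sites outside these windows, or that depart from the consensus, were not searched for, so a window without a match does not show that a gene lacks one.

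The probes themselves are shown for the genes on which the differences below turn, together with those that hold a run of U or an AU-rich pentamer of the kind that TIA proteins and HuR bind. TTTTT was found in 2 of the 14 probes of the genes other than TP53INP1 and in 10.6% of all probes, and ATTTA in 1 of 14 and in 7.79% of all. Both were searched on the transcript strand, and they cannot overlap. Each line below holds 30 of a probe's 60 bases, with these pentamers in capitals. Positions are on hg19, as the array's design gives them. The EDA2R probe lies at chrX:65815490-65815549 on the minus strand, the DDB2 probe at chr11:47260623-47260682 on the plus strand and the GDF15 probe at chr19:18499890-18499949 on the plus strand. The MDM2 probe lies at chr12:69238891-69238950 on the plus strand and the SESN1 probe at chr6:109308477-109308536 on the minus strand.
EDA2R: cagggctatgtttgtttatgatgctctgca
DDB2: caagggcccctctgtatctagcctggaacc
GDF15: gctggtctgatggaactgtgtATTTATTTA
MDM2: ttgtgaaaagTTTTTagttgcgctttatgg
SESN1: agtattttgcTTTTTgacagtacaagatgc
The GDF15 probe holds a pair of overlapping ATTTA pentamers. MDM2 and SESN1, whose probes hold TTTTT, stayed below 2-fold in the comparisons with HuR. So did CDKN1A and the other MDM2 probes, which hold none. Whether a pentamer in a probe bears on binding or level was not tested.

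Most of the 10 genes were highest in the TIA lines, intermediate in GFP and lowest in HuR. Compared with HuR, 7 of the 10 were at least 2-fold higher in TIA1, namely DDB2, TP53INP1, EDA2R, PHLDA3, PIDD, GDF15 and DRAM1, and the same 7 were at least 2-fold higher in TIAR. Over all genes this size was reached by 8.69% of 21223 for TIA1 and 8.02% of 21503 for TIAR. These contrasts chose the genes, so nothing is read from the excess. The median difference of the 10 genes was 1.31 for TIA1 and 1.54 for TIAR, beside 0.08 and 0.06 over all genes tested. CDKN1A, MDM2 and SESN1, which include the best known of the targets, stayed below 2-fold in both. The levels on each array are plotted gene by gene.

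**Figure D1:**
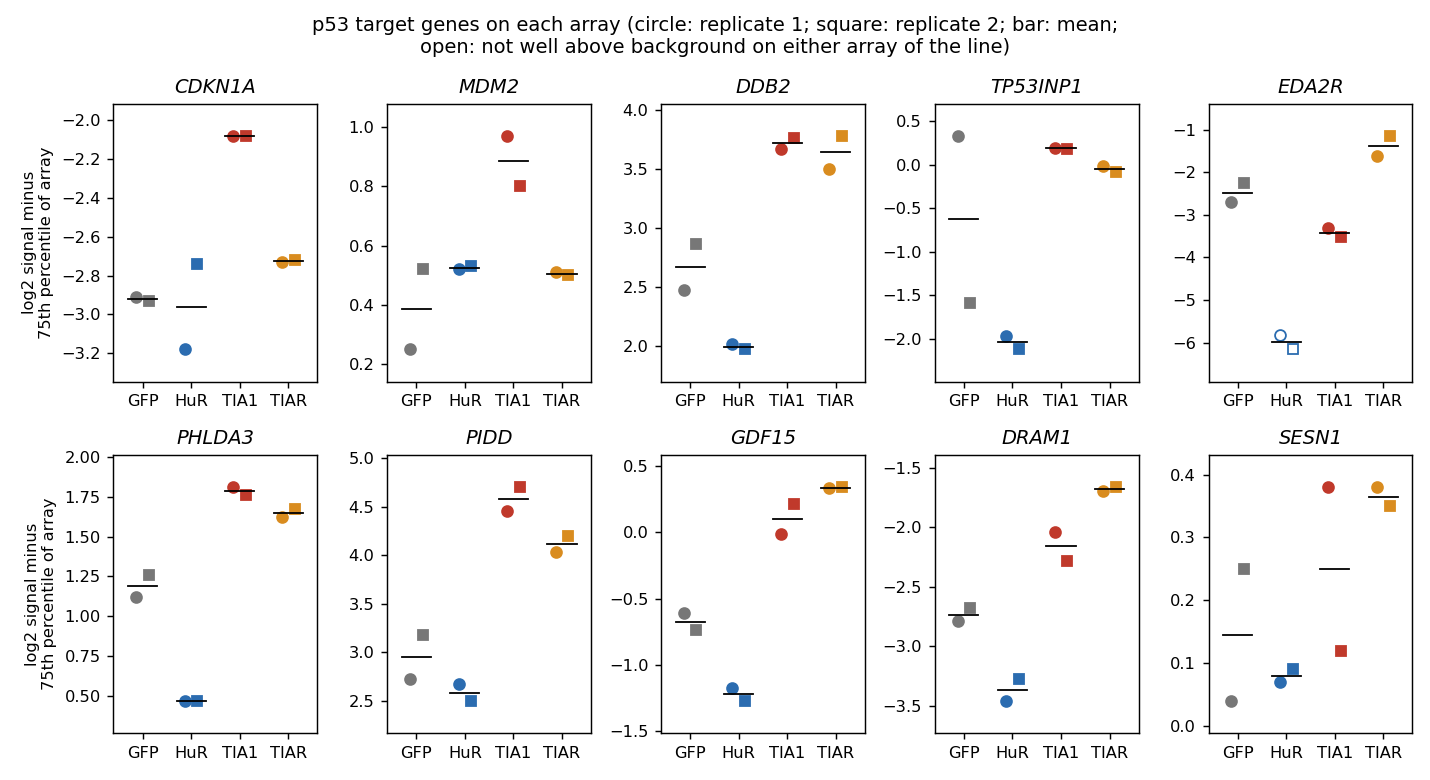
Level of each of the 10 p53 target genes (y axis, log2 signal minus the 75th percentile of the array; scales differ between panels) in the GFP, HuR, TIA1 and TIAR lines, 1 point per array and a bar at the mean of 2. The TIA1 and TIAR points of DDB2, PHLDA3, PIDD, GDF15 and DRAM1 lie above all GFP and HuR points, and the GFP points of TP53INP1 are 1.92 apart.

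Growth arrest was represented by CDKN1A, which encodes p21, an inhibitor of cyclin-dependent kinases. Its probe (chr6:36652178-36652237) read -2.91 and -2.93 in GFP, -3.18 and -2.74 in HuR, -2.08 and -2.08 in TIA1 and -2.73 and -2.72 in TIAR. TIA1 was therefore clearly the highest line, and the TIAR arrays lay only 0.01 above the nearer HuR array. TIA1 exceeded HuR by 0.88 ± 0.22 (SE of the difference, n = 2 arrays per line), which is 1.84-fold, and exceeded GFP 1 and GFP 2 by 0.83 and 0.85. Over the processing alternatives the difference from HuR ranged from 0.42 to 1.10, and that from the GFP mean from 0.42 with normexp, another background correction, to 1.82 with quantile normalization. TIAR exceeded HuR by 0.23 ± 0.22, no more than the spread between the HuR arrays. The direction of that TIAR difference did not hold under every processing alternative, which gave -0.26 to 0.46. TIAR lay below TIA1 by a log2 difference of -0.65 ± 0.01.

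SESN1 encodes sestrin 1, a stress protein that restrains growth signaling through mTORC1. It read 0.04 and 0.25 in GFP, 0.07 and 0.09 in HuR, 0.38 and 0.12 in TIA1 and 0.38 and 0.35 in TIAR. Its whole range over the 8 arrays was 0.34, the narrowest of the 10. The difference from HuR was 0.17 ± 0.13 in TIA1 and 0.29 ± 0.02 in TIAR, and the GFP arrays spanned both the HuR and a TIA1 array.

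MDM2, the ubiquitin ligase of p53, read 0.25 and 0.52 in GFP, 0.52 and 0.53 in HuR, 0.97 and 0.80 in TIA1 and 0.51 and 0.50 in TIAR with its brightest probe. Only the TIA1 arrays stood above the rest with this probe, by 0.36 ± 0.08 over HuR, whereas TIAR differed from HuR by -0.02 ± 0.01. It starts at base 7042 of the transcript, and 3 other probes lie upstream of it. The probes at bases 1721 and 1973 placed TIA1 above HuR by 0.66 ± 0.13 and 0.65 ± 0.26, and TIAR above HuR by 0.33 ± 0.14 and 0.32 ± 0.08. The probe at base 5056 gave 0.27 ± 0.18 and 0.07 ± 0.14. No MDM2 probe reached 2-fold, and both upstream probes gave larger differences than both downstream ones. Whether these probes read different transcripts was not tested.

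DDB2 encodes the damage-binding subunit that recognises ultraviolet lesions for nucleotide excision repair. It read 2.47 and 2.86 in GFP, 2.02 and 1.97 in HuR, 3.67 and 3.76 in TIA1 and 3.50 and 3.78 in TIAR. All 4 TIA arrays were above both GFP arrays, which in turn were above both HuR arrays, while TIA1 and TIAR overlapped. The difference from HuR was 1.72 ± 0.05 in TIA1, or 3.30-fold, and 1.65 ± 0.15 in TIAR, or 3.13-fold. A second probe, starting at base 589 of its transcript against base 1701 for the first, gave larger differences of 2.32 ± 0.04 and 2.21 ± 0.11. HuR lay below GFP by log2 differences of -0.47 and -0.87 against GFP 1 and GFP 2, and by -1.65 and -1.10 with the second probe.

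TP53INP1 encodes a nuclear protein that promotes p53 activity in cell death and is also found at autophagosomes. It read 0.33 and -1.59 in GFP, -1.96 and -2.12 in HuR, 0.19 and 0.18 in TIA1 and -0.02 and -0.09 in TIAR. The GFP arrays were 1.92 apart, with GFP 1 above all TIA arrays and GFP 2 close to HuR. TIA1 exceeded HuR by 2.22 ± 0.08 and TIAR by 1.99 ± 0.09. Against GFP the values depended on the array, since TIA1 differed by -0.15 from GFP 1 and by 1.77 from GFP 2. A second, dimmer probe did not show the split. It read -4.97 and -5.19 in GFP, -3.62 and -3.33 in TIA1 and -3.71 and -3.59 in TIAR, and it stayed in the background on both HuR arrays. With it TIA1 was at least 5.60-fold and TIAR at least 4.96-fold above HuR. Here and below, such a bound sets the brighter line against a floor. On each dim array the floor is the signal of the probe or the faintest signal counted as above background, whichever is larger. Such bounds hold on this scale only, and the measured difference under other processing can be smaller than the bound.

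EDA2R is a receptor of the tumor necrosis factor family that binds ectodysplasin A2. It read -2.69 and -2.26 in GFP, -3.31 and -3.53 in TIA1 and -1.61 and -1.14 in TIAR, and stayed in the background on both HuR arrays, at -5.83 and -6.16. No arrays of neighbouring lines overlapped, and the order was HuR, TIA1, GFP and TIAR. On this scale TIAR was at least 24.2-fold, GFP at least 11.3-fold and TIA1 at least 5.87-fold above HuR. The size depended on the processing, the measured differences from HuR falling from 2.57 to 1.04 in TIA1 and from 4.62 to 2.50 in TIAR with the authors' normalized values. TIAR exceeded TIA1 by 2.04 ± 0.26, where 2.41% of 20763 genes were at least 2-fold higher, and no other of the 10 genes reached 2-fold between the TIA lines. TIA1, like HuR, lay below GFP for this gene, by log2 differences of -0.73 and -1.16 against GFP 1 and GFP 2. The TIA1 difference from the GFP mean, -0.94, became -0.04 with the authors' values and 0.02 with quantile normalization. A second EDA2R probe, whose 60 bases span 2832 bases of the genome and so cross an intron, was well above background on 3 arrays in all. It placed TIA1 and TIAR at least 1.80-fold and 1.95-fold above HuR, with 1 array above background in each, and read -1.90 and -5.64 on GFP 1 and GFP 2. With this dim probe TIAR differed from TIA1 by 0.12 ± 0.90, so the difference of 2.04 between the TIA lines rests on the brighter probe alone.

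PIDD encodes an adaptor with a death domain that activates caspase 2. It read 2.73 and 3.18 in GFP, 2.67 and 2.50 in HuR, 4.45 and 4.70 in TIA1 and 4.03 and 4.20 in TIAR. Here HuR lay below GFP 1 and GFP 2 by log2 differences of -0.14 and -0.60, and the TIA lines stood further above GFP. TIA1 exceeded HuR by 1.99 ± 0.15 and TIAR by 1.53 ± 0.12, or 3.97-fold and 2.89-fold. TIA1 also exceeded GFP 1 and GFP 2 by 1.85 and 1.39, and TIAR exceeded them by 1.39 and 0.93.

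PHLDA3 encodes a small pleckstrin homology protein that competes with AKT for membrane lipids. It read 1.12 and 1.26 in GFP, 0.47 on both HuR arrays, 1.81 and 1.76 in TIA1 and 1.62 and 1.67 in TIAR. The lines did not overlap at any step, in the order HuR, GFP, TIAR and TIA1. Over HuR, TIA1 was higher by 1.31 ± 0.02 and TIAR by 1.17 ± 0.03. HuR lay below GFP 1 and GFP 2 by log2 differences of -0.65 and -0.79, about as far as TIA1 lay above them, at 0.66 and 0.52. This balance depended on the processing. From the GFP mean, HuR differed by -0.98 and TIA1 by 0.35 with the authors' values, and by -0.88 and 0.43 with normexp.

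GDF15 is a secreted stress cytokine of the transforming growth factor beta family. It read -0.61 and -0.74 in GFP, -1.17 and -1.27 in HuR, -0.01 and 0.21 in TIA1 and 0.33 and 0.34 in TIAR. The lines again did not overlap, with TIAR highest. TIA1 exceeded HuR by 1.32 ± 0.12 and TIAR by 1.55 ± 0.05. DRAM1, a lysosomal membrane protein that promotes autophagy, read -2.79 and -2.68 in GFP, -3.46 and -3.28 in HuR, -2.04 and -2.28 in TIA1 and -1.69 and -1.66 in TIAR. On this scale it had the same order as GDF15 and no overlap, but HuR minus GFP turned from -0.64 to 0.33 with the authors' values and to 0.54 with quantile normalization. Over HuR, TIA1 was higher by 1.21 ± 0.15 and TIAR by 1.70 ± 0.09. The TIA1 difference of DRAM1 fell below 2-fold in 3 of the 9 settings tried, down to 0.73.

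Against the GFP arrays the same genes were less far apart, and the result depended on the array. At least 2-fold higher in TIA1 were 2 of the 10 against GFP 1 (DDB2 and PIDD) and 2 against GFP 2 (TP53INP1 and PIDD). In TIAR they were 4 against GFP 1 (DDB2, EDA2R, PIDD and DRAM1) and 3 against GFP 2 (TP53INP1, GDF15 and DRAM1). Over all genes tested, the shares at least 2-fold higher were 8.11% against GFP 1 and 8.46% against GFP 2 for TIA1, and 6.5% and 8.28% for TIAR. HuR was at least 2-fold lower for TP53INP1 and EDA2R against GFP 1 and for EDA2R alone against GFP 2, where the shares over all genes were 19.8% and 4.72%. Between the GFP arrays themselves, 20.3% of 21537 genes were at least 2-fold apart, and 1 of the 10 genes, TP53INP1, with the other 9 within 0.46. The differences from each GFP array are plotted beside those from HuR.

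**Figure D2:**
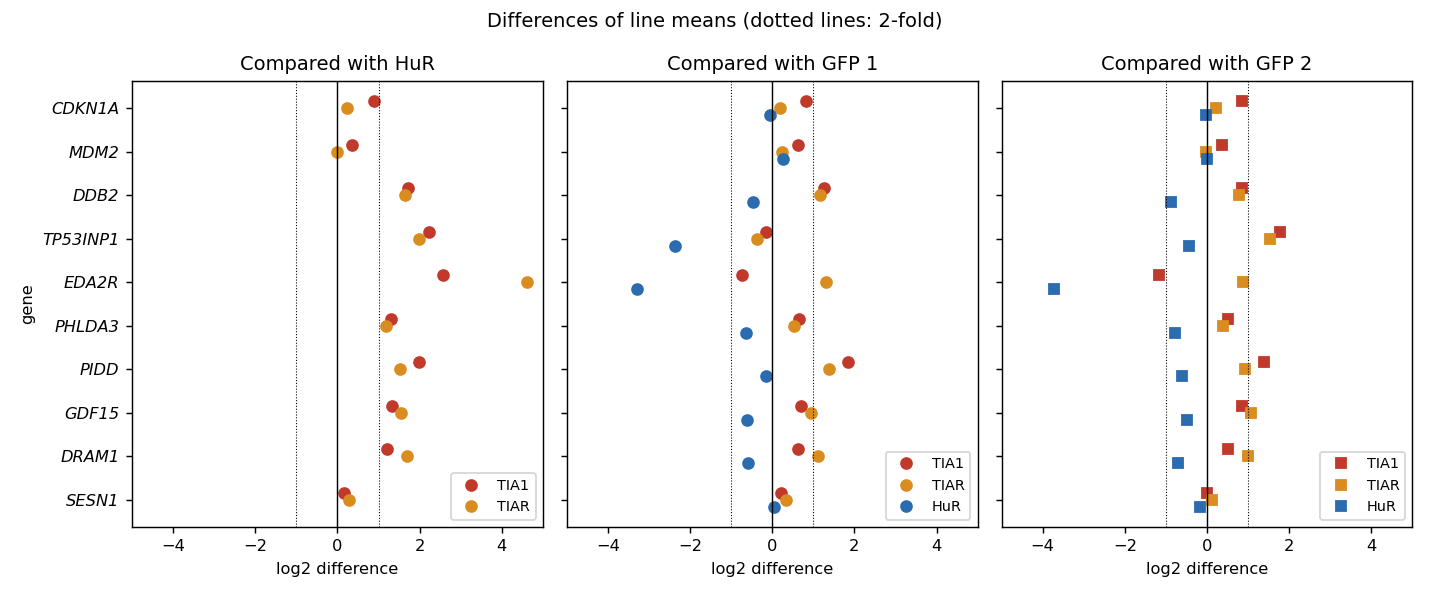
Log2 difference of the TIA1, TIAR and HuR line means (x axis) from the HuR mean, from GFP 1 and from GFP 2 for each of the 10 genes (y axis), with dotted lines at 2-fold. Compared with HuR, 7 genes lie beyond 2-fold in both TIA lines, the EDA2R points being measured against HuR signals that were not well above background, and TP53INP1 changes sides between GFP 1 and GFP 2.

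Read by overlap of arrays, 9 of the 10 genes had all 4 TIA arrays above both HuR arrays, the exception being MDM2, and 32.1% of all genes did. With GFP 2 added to the lower side the count was 7 of 10 against 20.3% of all genes, and with both GFP arrays it was 6 of 10 (CDKN1A, DDB2, PHLDA3, PIDD, GDF15 and DRAM1) against 13.5%. Both HuR arrays lay below both GFP arrays for 7 of 10, where 28.6% of all genes did. These 7 were the genes that were 2-fold higher in the TIA lines than in HuR, and both differences use the same HuR arrays. Since the 10 genes were chosen on these values, nothing is read from these counts or from their coincidence. For DRAM1 the place of HuR below GFP depended on the processing, since the HuR mean lay above the GFP mean by 0.33 with the authors' values and by 0.54 with quantile normalization. For CDKN1A, TIAR minus the GFP mean went from 0.20 to -0.16 with normexp and to 1.21 with quantile normalization. HuR minus the GFP mean went from -0.04 to 0.49 with the authors' values and to 1.15 with quantile normalization. In bulk RNA, fewer cells that express a gene and less RNA per cell cannot be told apart.

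For the 4 genes with several probes, the probes agreed in direction for TIA1 against HuR and differed in size. They did so for TIAR as well, except at the MDM2 probe at base 7042.

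**Figure D3:**
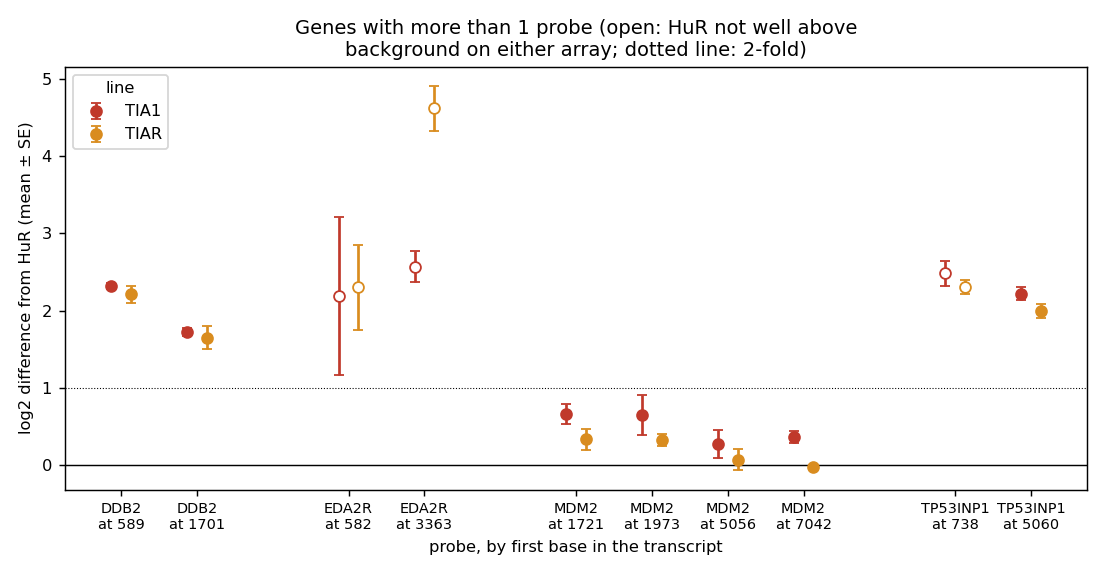
Log2 difference of TIA1 and of TIAR from HuR (y axis, mean ± SE, n = 2 arrays per line) for each probe of DDB2, EDA2R, MDM2 and TP53INP1, ordered by the probe's first base in the transcript. DDB2 and TP53INP1 probes lie between 1.65 and 2.48, the MDM2 probes lie at or below 0.66, and the EDA2R probes disagree in size, with open points where HuR was not well above background.

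Outside the core list, 70 other known p53 targets were examined, of which 65 could be tested against HuR. This list was also chosen with earlier results of these data known. Its counts and p-values therefore only describe these arrays, and nothing is read from any excess. The activity of p53 was not measured. Compared with HuR, 11 of the 65 were called higher in TIA1 and 1 lower, and 8 were called higher in TIAR and none lower, at 2-fold and an adjusted p under 0.05 from limma. Over all genes, 8.45% were called higher and 4.73% lower in TIA1, and 7.38% and 2.84% in TIAR. With only probes well above background on all arrays of a comparison, 62 could be tested. Of these, 10 were called higher in TIA1 and 7 in TIAR, and 0 lower in either. Shares over all genes are not given for that filter. The median difference of the 65 was 0.36 in TIA1 and 0.26 in TIAR, beside 0.08 and 0.06 over all genes. The TIAR count rested on both HuR arrays, falling to 2 without HuR 1 and to 1 without HuR 2, while the TIA1 count stayed between 8 and 13 with any 1 array left out. The highest adjusted p among the 8 TIAR calls was then 0.10 (limma), with fewer arrays in the fit.

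By role, 4 of 19 tested genes of apoptosis were called higher and 1 lower in TIA1, and 3 of 19 were called higher in TIAR. BAX, the pore-forming protein of the mitochondrial outer membrane, read 1.93 and 1.91 in HuR, 3.28 and 3.67 in TIA1, 3.11 and 3.53 in TIAR and 2.79 and 3.17 in GFP. It was raised over HuR by 1.55 ± 0.16 (SE) in TIA1, with an adjusted p of 0.0052 from limma, and by 1.40 ± 0.17 in TIAR. HuR was the low line for this gene, as for most of the 10. A second BAX probe gave only 0.43 and 0.55. BBC3, the BH3-only protein PUMA, read 2.10 and 2.12 in HuR, 2.04 and 2.15 in GFP and 3.30 and 3.46 in TIA1. It rose by 1.27 ± 0.10 in TIA1, from a level shared by HuR and GFP. The decoy receptor gene TNFRSF10D rose by 1.19 ± 0.09 in TIA1 and by 1.49 ± 0.09 in TIAR, with adjusted p of 0.0034 and 0.0045 (limma). Another decoy receptor gene, TNFRSF10C, was called lower in TIA1, where it stayed in the background on both arrays. On this scale HuR was at least 1.14-fold above it. It could be tested only because the HuR arrays were well above background, so the call and its adjusted p lend no support. This call was lost with the authors' values (a log2 difference of -0.28), with all 8 arrays in one fit and with normexp, where the sign turned to 0.06. The adjusted p ranged from 0.0031 to 0.69 over the limma alternatives.

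In the group of growth arrest and feedback genes, 0 of 10 were called in TIA1 and 1 of 10 in TIAR. That gene was SFN, which encodes 14-3-3 sigma, a G2 checkpoint protein. It read -0.71 and -0.98 in HuR and 0.81 and 1.60 in TIAR, and rose by 2.05 ± 0.30 with an adjusted p of 0.016 (limma). In the group of DNA repair and nucleotide supply, 2 of 10 were called higher in TIA1 and 0 of 10 in TIAR. Among genes of metabolism, redox and autophagy the counts were 2 and 1 of 13. SLC12A4, a potassium-chloride cotransporter, exceeded HuR by 1.51 ± 0.10 in TIAR with an adjusted p of 0.0050 (limma). It read -2.22 and -2.31 in HuR, -1.41 and -0.86 in GFP and -0.81 and -0.70 in TIAR. HuR was thus the low line, and TIAR lay close to GFP 2.

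Signaling, secretion and cell shape gave 3 of 13 higher in each TIA line, and these were IGFBP3, LIF and TP53INP2 in both. IGFBP3, a secreted protein that sequesters insulin-like growth factors, read -3.87 and -4.09 in TIA1 and -4.02 and -3.88 in TIAR and stayed in the background on both HuR arrays. On this scale it was at least 4.12-fold above HuR in TIA1 and at least 4.19-fold in TIAR. It could be tested against HuR only because the TIA arrays were well above background. Its adjusted p of 0.0018 and 0.0035 (limma) therefore set these arrays against background readings and lend the difference no support. The fitted log2 differences, 4.10 and 4.12, fell to 1.16 and 1.05 with the authors' values and to 1.5 and 1.46 with normexp. The calls were made in both, but under the same filter, so they lend no support there either. LIF, a cytokine that signals through JAK and STAT3, rose by 1.46 ± 0.14 in TIA1. TP53INP2, a relative of TP53INP1 that acts in autophagy, rose by 1.46 ± 0.10 in TIAR from -3.29 and -3.35 in HuR. GFP 1, at -1.43, was above all TIA arrays for this gene, and GFP 2, at -2.13, was above both TIA1 arrays, at -2.34 and -2.17.

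**Figure D4:**
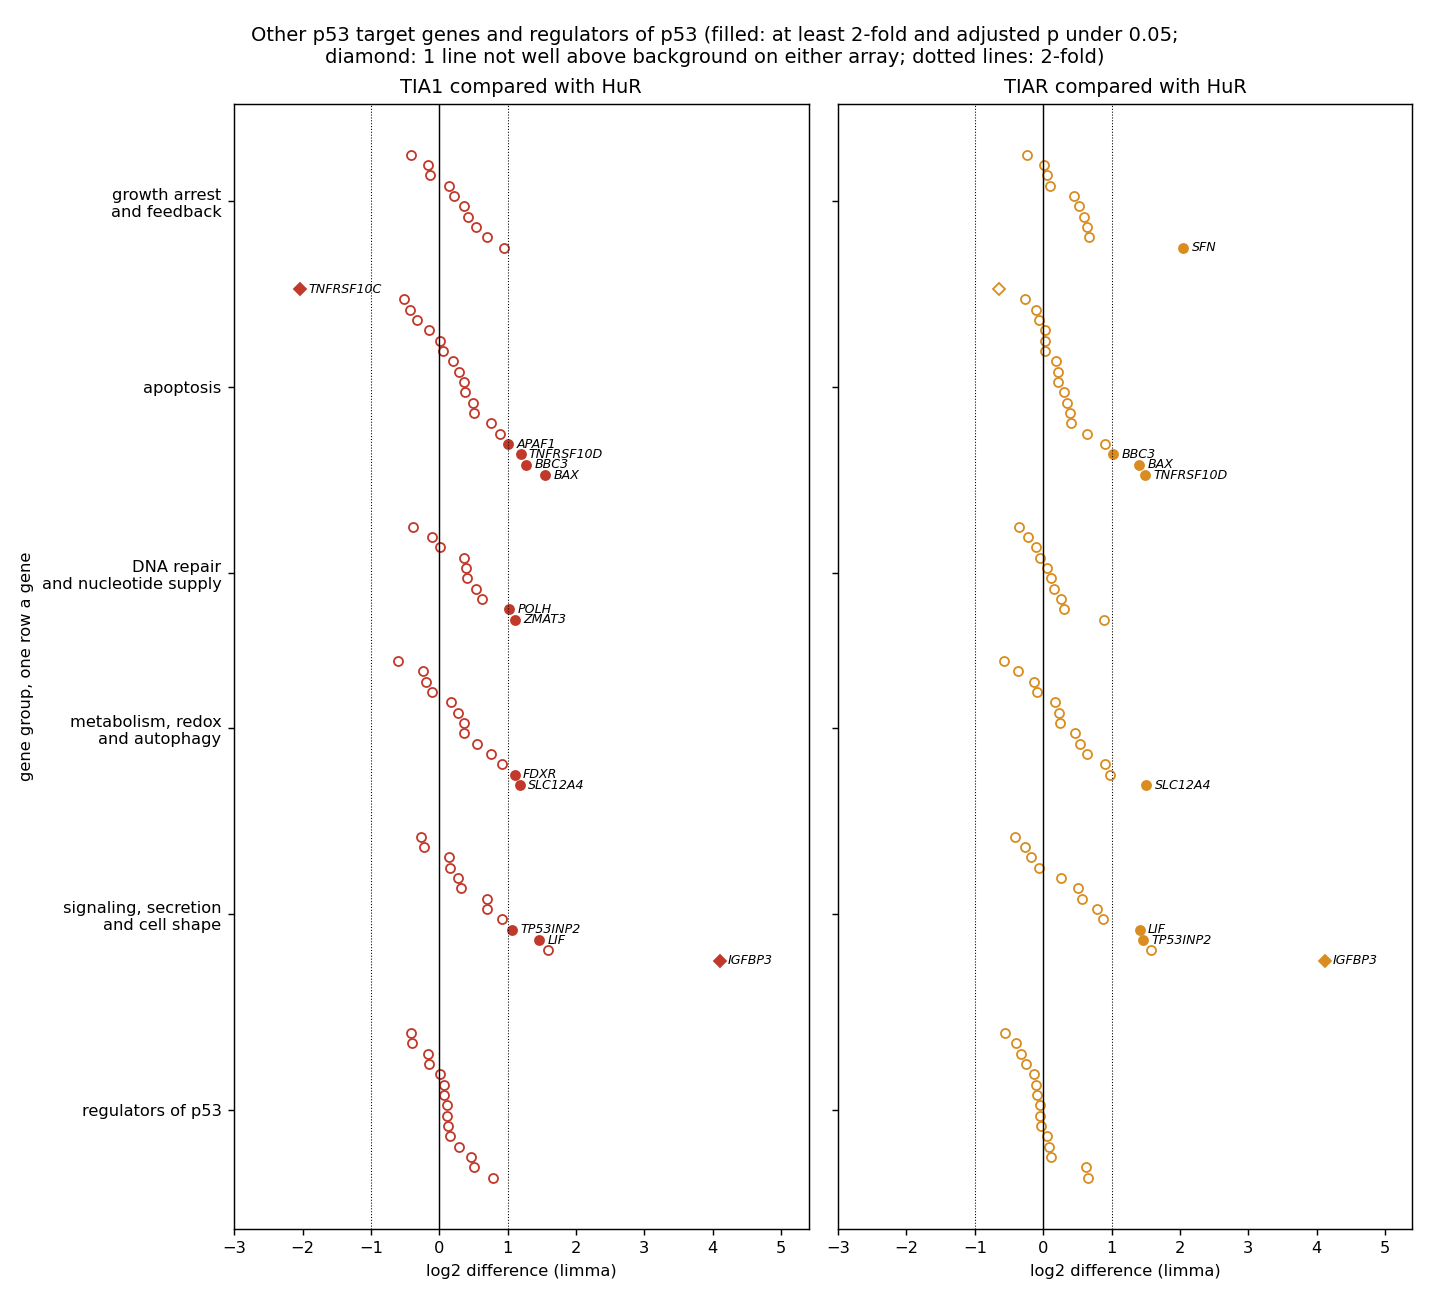
Fitted log2 difference from HuR (x axis) of each tested gene in 5 role groups of other p53 targets and among regulators of p53 (y axis, one row a gene), for TIA1 on the left and TIAR on the right. Filled points passed 2-fold and an adjusted p under 0.05, which 11 higher and 1 lower did for TIA1 and 8 for TIAR. Diamonds are genes not well above background in 1 of the lines, whose fitted size is no bound.

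Against GFP, limma called 0 of 64 other targets in TIA1, 0 of 64 in TIAR and 0 of 63 in HuR, and 0% of all genes in each of the 3 comparisons. At an unadjusted p under 0.05 the counts were 17, 14 and 9, where 21.4%, 16.1% and 16.9% of all genes passed. The methods' paired test without adjustment called 4, 2 and 1. Its shares over all genes are not given, and nothing is read from these counts. Without GFP 1 limma called 6 higher and 1 lower in TIA1, 3 higher in TIAR and 6 lower in HuR. The shares over all genes were then 7.28% higher and 4.22% lower in TIA1, 5.11% and 1.54% in TIAR and 4.47% and 4.04% in HuR. Without GFP 2 limma called 8 higher and 3 lower in TIA1, 6 higher and 1 lower in TIAR and 7 lower in HuR. The shares over all genes were then 7.68% higher and 15.2% lower in TIA1, 5.96% and 14.5% in TIAR and 4.35% and 19.4% in HuR. In these fits the lone GFP array is assumed to vary like the other lines. The calls higher in both TIA lines without GFP 1 include IGFBP3 and another target. These read -7.37 and -7.49 on GFP 2, where they were not well above background. They could be tested only because the TIA arrays were, so these calls lend no support. Between the TIA lines, 1 of 64 targets was called lower in TIAR than in TIA1 and none higher, where 1.03% of all genes were called lower and 1.33% higher.

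MDM4, the relative of MDM2 that inhibits p53, read 1.79 and 1.78 in HuR and 1.28 to 1.49 on the TIA arrays. Its difference from HuR was -0.40 ± 0.11 in TIA1 and -0.40 ± 0.12 in TIAR, short of 2-fold. Of 15 tested regulators of p53, limma called 0 in either comparison with HuR, and the methods' paired test called 0. At an unadjusted p under 0.05 there were 6 in TIA1 and 4 in TIAR, where 52.5% and 45.5% of all genes passed.

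The mean profile of the 10 genes, each centred on its own mean, was -0.12 and -0.13 on the GFP arrays, -0.90 and -0.91 in HuR, 0.49 and 0.45 in TIA1 and 0.52 and 0.61 in TIAR. The 5 genes outside the list whose levels were most like it over the 8 arrays, among 18561 genes well above background on all of them, were PDE1B, LOC100130093, TTC32, HPCA and WNT6, with Pearson r from 0.993 to 0.995. WNT6, for example, read -2.88 and -3.29 in HuR and -0.77 and -0.68 in TIA1. Such likeness was frequent, since 630 of the genes, or 3.39%, had r above 0.9, and all points share the same 8 arrays.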

How the data were processed

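RNA was measured on Agilent SurePrint G3 human one-colour arrays. The authors deposited, for each array, intensity values from Feature Extraction 10.7.3.1, background-subtracted and detrended within the array. Their series table holds deposited log2 values after quantile normalization, with the TIAR arrays normalized apart. The labelling protocol in the labels names a rat array, whereas the file headers and probes are human. Here log2 processed signals were scaled to the array's 75th percentile, outlier spots were dropped and spots of a probe averaged. A probe was tested where both arrays of 1 or more of the compared lines had it well above background, with limma 3.58.1 in R 4.3.3 on the 4 arrays of a comparison, with Benjamini-Hochberg adjustment over all probes, and called at 2-fold and an adjusted p under 0.05. Limma was tested on simulated data. The number of arrays limits the precision. The 10 genes and the gene lists were chosen with earlier results of these data known. Named are the 10 genes, the 5 largest called changes of other targets in each direction against HuR, MDM4 and the 5 most alike profiles, and 1 gene under this rule is not reported here. Alternatives were other background correction, normalization, filters, probes, fits, arrays left out and the methods' paired test. Positions are from the array design, and exons were not assigned.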

Additional observations from a re-analysis of the deposited data

Results flagged for a closer look

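POLH, which encodes the DNA polymerase eta that copies past ultraviolet lesions, differed between the TIA lines in its distance from HuR, and was named after its values were seen. It read -0.81 and -0.78 in TIA1 and -1.90 and -1.94 in TIAR, with HuR at -1.79 and -1.83 and GFP at -2.27 and -1.90. The difference of TIAR from TIA1 was -1.13 ± 0.11 (SE), with an adjusted p of 0.028 from limma, and the adjusted p ranged from 0.026 to 0.23 over the processing alternatives. The call was made in 5 of 13 settings and was lost whenever any 1 array was left out. In those 4 fits the difference was -1.11 to -1.14, with an adjusted p of 0.11 to 0.13 (limma) from fewer arrays.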

How the results depend on the processing

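Of 480 recomputed differences of the 10 genes, 367 moved by less than the SD between replicates and none that was 2-fold reversed, while 23 smaller ones changed sign. In 16 a 2-fold difference fell below 2-fold, and 16 below 2-fold reached it. The count of other targets called in TIA1 against HuR (12 in all) became 6 with the authors' values, 7 with normexp and 7 with quantile normalization, and in TIAR (8) it became 5 with the methods' paired test. After Benjamini-Hochberg adjustment the paired test called 0 in both and 0 between the TIA lines. Against GFP, all 8 arrays in one fit called 5 in TIA1, 4 in TIAR and 4 in HuR, and the paired test 4, 2 and 1. Between the TIA lines the 1 call became 0 with the authors' values, normexp, no filter on dim probes or the replicate block. Shares over all genes are not given for these alternatives, and nothing is read from their counts. With 1 array left out the counts ranged from 8 to 13 (TIA1 against HuR), 1 to 9 (TIAR against HuR), 0 to 11, 0 to 7 and 0 to 7 (TIA1, TIAR and HuR against GFP) and 0 to 0 (between the TIA lines). The replicate block changed no other count, with 12 and 8 against HuR, and replicate differences of 2 lines correlated at -0.09 to 0.184, so the numbers do not pair the arrays. Choosing each gene's probe without GFP 1, added after seeing the data, changed no count. Quantile normalization moved the median of all probes against GFP to 0.234 to 0.249, from -0.043 to 0.006. The causes were not tested.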
